A study of Mus musculus with 6 samples.

Results

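The rodent Fbxw cluster is a row of closely related genes that encode F-box proteins with WD40 repeats. The genes described are Fbxw13, Fbxw14, Fbxw15, Fbxw16, Fbxw18, Fbxw19, Fbxw20, Fbxw21, Fbxw22 and Fbxw24, chosen by symbol. All 10 were found among the 25239 gene rows of the deposited count table. They were followed in 6 libraries, each from a mouse GV oocyte (germinal vesicle stage), in which the nucleus is still intact and meiosis has not resumed.

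An F-box protein is the substrate receptor of an SCF ubiquitin ligase. Its F-box binds the adaptor Skp1, which is held by the scaffold Cul1, and a second domain, here the WD40 repeats, can recruit the protein to be ubiquitinated. Most mammalian F-box genes are old and conserved, whereas this cluster expanded in rodents and is known for transcripts in the oocyte. For most of its members no substrate is established.

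The study compared oocytes that received water by microinjection with oocytes that received several phthalate metabolites (the body's products of plasticizers) mixed together, to learn what the mixture does to oocyte transcripts. There were 3 libraries in each group. All animals were CD-1 females (an outbred stock) of 4 to 6 weeks. In both groups cumulus-oocyte complexes, oocytes still inside their follicle cells, were injected, washed, kept in maturation medium with serum, pyruvate and 200 mIU/mL follicle-stimulating hormone, and collected as GV oocytes. The components and the dose of the mixture are not given in the sources used here. Each library is titled as a GV oocyte and numbered 1 to 3 within its group, and no animal or culture is named. By its wording, the extraction protocol may mean that all 3 libraries of a group were made from the same oocyte. A group therefore counts as 1 sample, no difference was tested, and intervals below cover counting error only. The libraries were made with Smart-seq3, which primes on poly(A) tails and amplifies full-length cDNA by PCR. The age, strain and culture were shared by the groups, so the control oocytes too had been injected and cultured with hormone.

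Total gene counts were 252267 to 300917 per library. The cells carried the transcripts that define an oocyte: the 16 oocyte markers took 2.84% to 3.32% of the counts of a library, and Gdf9, an oocyte growth factor, had 8040 counts with water and 7327 with phthalate. Follicle cell RNA was scarce. The 20 cumulus and granulosa markers had 10 to 37 counts per library, most of them from Nr5a2, and 11 of the 20 had no count in any library, among them Amh and Foxl2. Blood, stroma and endothelium markers had 8 to 25 counts per library, nearly all of them from Pecam1 (45 counts with water and 32 with phthalate). Because every library is an oocyte, the data do not show whether the Fbxw transcripts are specific to oocytes.

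On the GENCODE M21 annotation of GRCm38, the build listed by the submitters as mm10, the 10 genes lie on the minus strand of chromosome 9 within chr9:109139447-109702700, a span of 563 kb. Each has a principal transcript of 10 exons, from 1483 to 1835 bases long. All 12 protein-coding genes annotated inside the span are Fbxw genes. Of the other 2, Fbxw28 was counted and is used for comparison, and Fbxw25 has no row under that symbol in the deposited count table. Fbxw26 and Fbxw27 follow just beyond Fbxw18 and were counted as well. From the low to the high coordinate the members are ordered Fbxw21, Fbxw13, Fbxw20, Fbxw14, Fbxw22, Fbxw16, Fbxw19, Fbxw15, Fbxw24 and Fbxw18, with Fbxw28 between Fbxw14 and Fbxw22. Fbxw14 spans chr9:109270790-109287676, Fbxw19 chr9:109476654-109495875, Fbxw24 chr9:109601116-109626057 and Fbxw18 chr9:109676734-109702700. Across the 45 pairs of members, coding sequences were identical at 79.3% to 92.6% of aligned bases, with a median of 83.6%. Fbxw14 and Fbxw22 were the closest pair and Fbxw14 and Fbxw24 the most distant.

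The first 75 coding bases of 4 genes are printed to show a stretch in which the members are close to one another. Lower case marks a base identical to the aligned base of Fbxw24, the member with most counts, and capitals mark the others.
Fbxw24: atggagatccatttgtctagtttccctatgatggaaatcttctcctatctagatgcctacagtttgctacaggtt
Fbxw13: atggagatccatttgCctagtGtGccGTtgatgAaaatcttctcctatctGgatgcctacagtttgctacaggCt
Fbxw14: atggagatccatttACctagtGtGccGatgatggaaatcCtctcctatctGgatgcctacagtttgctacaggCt
Fbxw28: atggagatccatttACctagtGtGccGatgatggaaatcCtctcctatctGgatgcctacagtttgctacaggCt
Fbxw14 and its neighbour Fbxw28 carry the same letters in this stretch, each with 8 capitals. Over the whole coding sequence they are 99.1% identical, with 13 differing bases of 1398. Of all 150-base stretches of the Fbxw14 transcript, the length of a sequencing read, 30.2% also occur exactly in Fbxw28. How reads with several matches were counted is not given in the sources used here, so the split between Fbxw14 and Fbxw28 is uncertain. In the other 9 members, 0 to 4.90% of 150-base stretches were shared with another annotated gene. For shorter stretches of 75 bases the share was 53.4% in Fbxw14 and 0.566% (Fbxw24) to 11.9% (Fbxw16) in the others. Some of that sharing was between members, as for Fbxw21 (7.23%) and Fbxw19 (5.39%), each of which shared most with the other. At 150 bases the 4.90% belong to Fbxw16 and the 1.49% of Fbxw15 come next, both shared with genes annotated on the opposite strand (Gm42494 and Gm42756). Counting by strand is not stated either, so antisense reads may be included for these members.

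The genes also share their upstream sequence. RefSeq (GRCm38.p6) promoters were at hand for 8 members, all except Fbxw13 and Fbxw22. Their 250 bases before the transcript start were 81.7% to 95.5% identical between pairs (28 pairs, median 88.9%). The last 150 bases before the RefSeq start, which for Fbxw19 lies inside the GENCODE gene, are printed for the member with the highest level (Fbxw24), the member with the lowest ratio between the groups (Fbxw14) and those with the highest (Fbxw18 and Fbxw19). They read 5′ to 3′ on the minus strand, and capitals mark every match to CANNTG, the E-box that basic helix-loop-helix factors such as the oocyte factor Figla bind.
Fbxw24, chr9:109626060-109626209: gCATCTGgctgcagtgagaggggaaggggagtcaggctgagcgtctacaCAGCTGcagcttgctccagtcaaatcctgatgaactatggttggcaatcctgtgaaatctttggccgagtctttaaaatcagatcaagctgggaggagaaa
Fbxw14, chr9:109287677-109287826: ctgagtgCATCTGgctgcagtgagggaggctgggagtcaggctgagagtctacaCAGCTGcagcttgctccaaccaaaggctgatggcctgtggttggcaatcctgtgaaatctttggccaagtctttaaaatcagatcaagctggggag
Fbxw18, chr9:109702701-109702850: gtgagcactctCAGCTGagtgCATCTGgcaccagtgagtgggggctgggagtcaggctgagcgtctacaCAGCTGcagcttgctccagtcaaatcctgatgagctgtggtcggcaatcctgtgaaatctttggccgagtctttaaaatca
Fbxw19, chr9:109495855-109496004: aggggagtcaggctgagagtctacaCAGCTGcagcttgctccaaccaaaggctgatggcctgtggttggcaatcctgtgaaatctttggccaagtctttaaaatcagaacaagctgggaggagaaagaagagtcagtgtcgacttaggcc
The E-box form CAGCTG was found in 8 of 8 member promoters, against 12.8% of 27025 mouse promoters of the same length, and CATCTG (searched on both strands) in 6 of 8, against 14.5%. CAGCTG and CANNTG read the same on both strands. The general form CANNTG, which includes CAGCTG and CATCTG, occurs in 66.0% of all promoters. TTTAAAA, a run of T and A letters searched on both strands, was found in 7 of 8, against 8.004%, and TAATTG, a letter sequence bound by homeodomain factors and searched on both strands, in 0 of 8, against 7.34%. The longest stretch common to the 8 promoters was aaatctttggcc, which was present in 11 of all promoters, 10 of them of Fbxw genes. The 8 promoters are copies of one another, so these counts are not independent, and a match does not show that a factor binds.

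Together the 10 genes made up 1.43% of all counts of the 6 libraries, and with Fbxw26, Fbxw27 and Fbxw28 the locus made up 1.87%. By counts, 7 members ranked among the 100 highest of 12804 detected genes. Levels between genes were compared in CPM (counts scaled so that each library sums to 1000000) per kilobase of the principal transcript, over all libraries. Fbxw24 was highest at 2131 CPM per kilobase, rank 20 of 12543 genes with a length and a count. Fbxw15 followed at 1321 and Fbxw19 at 1132. Fbxw24 lay above Fbxw15, and Fbxw15 above Fbxw19, in 6 of 6 libraries. The next values were 1084 for Fbxw14, 1004 for Fbxw18, 855 for Fbxw21 and 785 for Fbxw16. These neighbours changed places between libraries. Fbxw19 was above Fbxw14 in 3 of 6, which were the phthalate libraries. Fbxw14 was above Fbxw18 in 3 of 6, which were the water libraries. Neither split was tested. Fbxw18 was above Fbxw21 in 5 of 6 and Fbxw21 above Fbxw16 in 4 of 6. Fbxw16 stood above Fbxw22 (385) in 6 of 6 libraries. Fbxw22 and Fbxw20 (381) were not separated, with Fbxw22 higher in 4 of 6. Fbxw13 was lowest at 160 CPM per kilobase, below Fbxw20 in 6 of 6 libraries. With the longest coding transcript as the length, Fbxw21 and Fbxw16 exchanged ranks and the other ranks were the same.

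**Figure D1:**
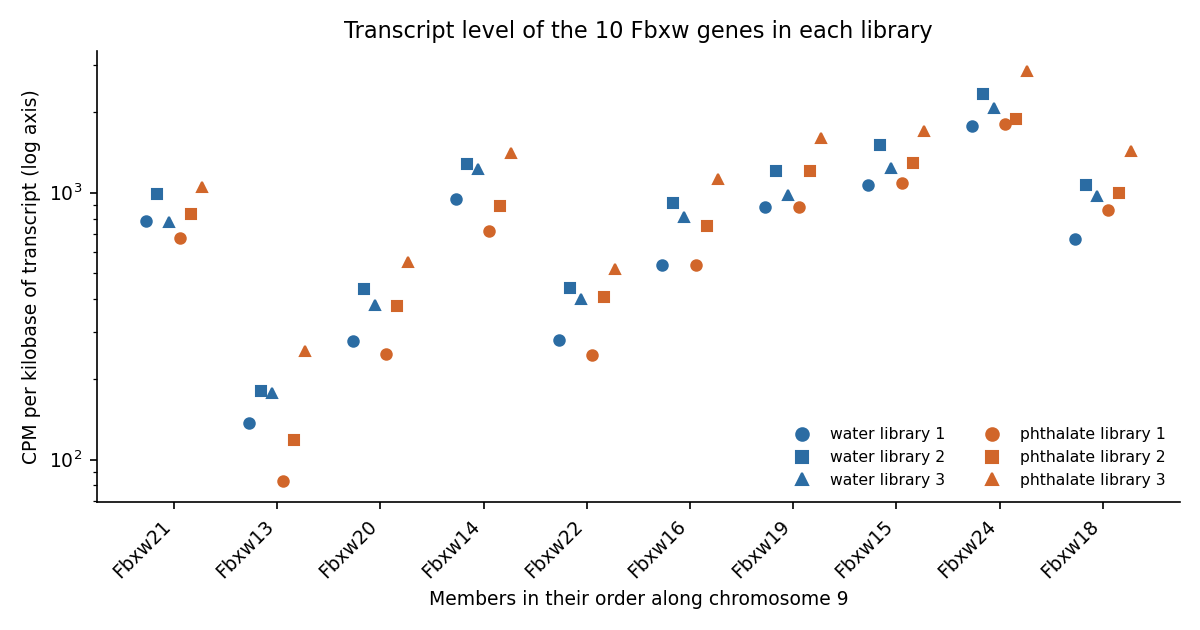
CPM per kilobase of principal transcript (log axis) for the 10 genes, in their order along chromosome 9 from Fbxw21 to Fbxw18, with 1 point per library (blue for water, orange for phthalate, marker shape for the number of the library within its group). Phthalate library 3 is the highest point of every gene. The points run from 82.8 for Fbxw13 in phthalate library 1 to 2850 for Fbxw24 in phthalate library 3.

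The summed level varied within each group by more than the group sums differed. With water the 10 genes had 3066, 4828 and 3981 counts in libraries 1, 2 and 3, or 11377, 16044 and 14029 CPM, and triplets of values below keep this order. With phthalate they had 2772, 3978 and 5300 counts, or 10988, 13483 and 19278 CPM. The lowest and the highest value were both phthalate libraries and the water libraries lay between them, so the groups overlapped. The highest water library was 1.41-fold above the lowest, and the highest phthalate library 1.75-fold above the lowest. As a share of counts the genes took 1.39% with water (95% exact binomial interval 1.37 to 1.42) and 1.47% with phthalate (1.44 to 1.49). The log2 ratio of phthalate over water, on sums scaled by edgeR's TMM factors, was 0.09 (interval 0.06 to 0.13, or 0.04 to 0.14 on counts halved to read pairs). That is a 1.07-fold difference. The ratio became -0.20 on leaving out phthalate library 3 and -0.03 on leaving out water library 1. Leaving out phthalate library 1 gave 0.27, water library 2 gave 0.24 and phthalate library 2 gave 0.19, so the direction and the size rested on single libraries.

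**Figure D2:**
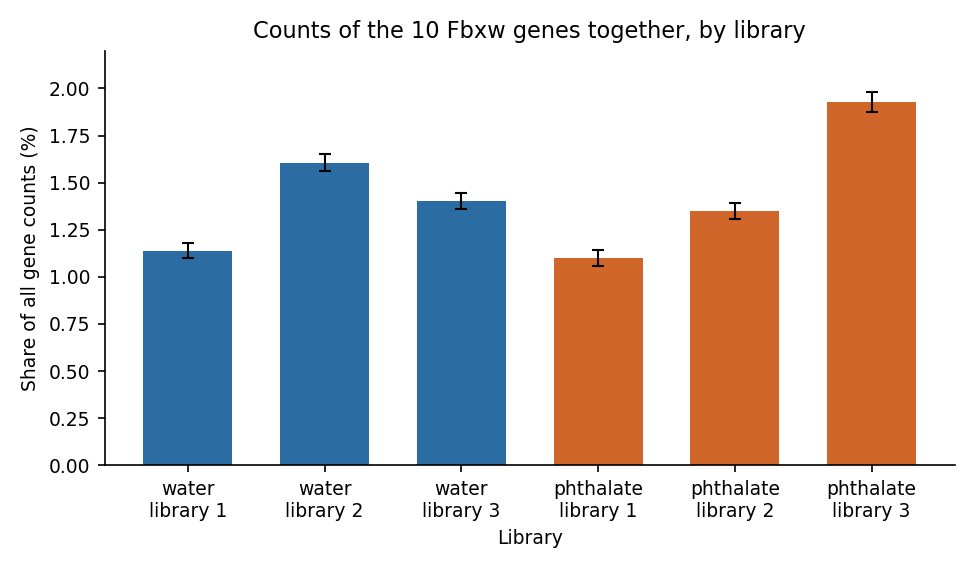
Share of all gene counts (percent) taken by the 10 Fbxw genes in each library, with 95% exact binomial intervals (counting error only) and the axis from 0. The bars run from 1.10% in phthalate library 1 to 1.93% in phthalate library 3, with the 3 water libraries between.

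Other measures of the libraries also varied. The share of the oocyte markers was 3.32%, 2.96% and 3.07% with water and 2.99%, 2.84% and 3.21% with phthalate, a narrower range than that of the Fbxw genes. Against those markers, the Fbxw genes had 0.343, 0.542 and 0.457 counts per marker count with water and 0.368, 0.475 and 0.600 with phthalate, which is the same order of libraries within each group. Gene counts per count of the ERCC spike-in RNAs were 358, 890 and 907 with water and 569, 592 and 942 with phthalate. Fbxw counts per spike-in count were 4.07, 14.3 and 12.7 with water and 6.26, 7.99 and 18.2 with phthalate, groups that overlapped. The 2 libraries with fewest gene counts per spike-in count, water library 1 and phthalate library 1, were also those with the lowest Fbxw level. Phthalate library 3, with the highest, had the lowest TMM factor, 0.935. Rn45s, the ribosomal RNA precursor, took 2.02%, 2.32% and 2.35% of counts with water and 3.54%, 2.89% and 3.38% with phthalate. With Rn45s left out the summed Fbxw log2 ratio was again 0.09, but leaving out this row changes only the scaling. The part of these quantities, Rn45s included, in the Fbxw differences was not tested.

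The members were high and low in the same libraries. All 10 had their highest CPM in phthalate library 3 and, within the phthalate group, their lowest in library 1. Of the 437 genes whose mean count lay between 100 and 1000, 21.1% had their highest CPM in phthalate library 3. Looking at the phthalate group alone, 38.4% of the 437 were highest in library 3 and 35.9% lowest in library 1. Within the water group all 10 members were highest in library 2, and 9 were lowest in library 1, where 36.2% and 41.0% of the 437 genes were. The exception was Fbxw21, with 1180 CPM in library 1 and 1170 in library 3. Pearson's r of log2 CPM over the 6 libraries had a median of 0.89 over the 45 pairs of members (0.66 to 0.99). Over all pairs of the 437 genes with a count in every library the median r was 0.0008. These are descriptions over 6 points that share a library, its depth and its scaling, and reads shared between paralogs would add to them. The fold between the highest and the lowest library was 1.55 (Fbxw21) to 3.08 (Fbxw13). For the 9 members with a mean count from 100 to 1000 its median was 1.97, and over all 437 genes of that range it was 1.52, with the 90th percentile at 2.02.

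Genes that follow the same course were sought among 2773 other genes that averaged at least 20 counts and were detected in every library. The highest r with the summed Fbxw level was that of Calm2, a calmodulin gene (0.99), followed by Tmem63b, which encodes an ion channel of the cell membrane (0.97), and Fbxw26 of the same locus (0.97). Calm2 had 260, 395 and 328 CPM with water and 262, 308 and 440 with phthalate. These are the highest of 2773 values, each over 6 libraries that share their depth and scaling with the Fbxw sum. Of the other counted neighbours, Fbxw28 had an r of 0.92 and Fbxw27 of 0.70.

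Gene by gene, 0 of the 10 members were past a 1.5-fold difference between the groups, where 15.1% of 4644 genes that passed edgeR's filter on low counts were. Since the spread of ratios narrows with counts, nearer backgrounds are the 2784 genes averaging at least 20 counts, of which 8.12% were past it, and the 1078 averaging at least 50, of which 2.13% were. A count of 0 of 10 is near the last share. All 10 members passed the filter. Their median log2 ratio was 0.09, with 8 above and 2 below 0. Over the 4644 genes it was 0.01, with 2377 above and 2267 below 0. The CPM of the groups overlapped for each of the 10. They did not overlap for 10.0% of the 4644 genes, and 0 of 10 is near that share too.

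Fbxw18 and Fbxw19 had the highest ratios. Fbxw18 had 1020, 1628 and 1473 CPM with water and 1308, 1515 and 2168 with phthalate. Library 3 of the phthalate group was highest and library 1 of the water group lowest, with the others mixed. Its log2 ratio was 0.29 (95% interval 0.17 to 0.40), and with 1 library left out it was between 0.01 and 0.45. Fbxw19 had 1306, 1788 and 1455 CPM with water and 1312, 1786 and 2375 with phthalate, so libraries 1 and 2 of the groups nearly coincided. Its ratio was 0.29 (0.18 to 0.39), with a range of 0.01 to 0.48. For both genes the lowest value of the range was that without phthalate library 3.

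Fbxw14 had the lowest ratio. It stood at 1688, 2283 and 2185 CPM with water and 1280, 1586 and 2517 with phthalate. Phthalate libraries 1 and 2 lay below all water libraries, and library 3 above them. The log2 ratio was -0.18 (-0.28 to -0.08). It was -0.54 without phthalate library 3 and 0.02 without phthalate library 1. Fbxw28, with which its reads may be mixed, had a ratio of -0.14 (-0.22 to -0.05; -0.54 to 0.10 with 1 library left out), and the sum of both had -0.15 (-0.22 to -0.09).

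Fbxw24, the most abundant member, had 2646, 3499 and 3101 CPM with water and 2684, 2800 and 4241 with phthalate. Its log2 ratio was 0.08 (0.01 to 0.16), and it was -0.20 without phthalate library 3. Fbxw15 had 1592, 2250 and 1857 CPM against 1621, 1929 and 2546, a ratio of 0.11 (0.01 to 0.21). In both genes water library 1 was lowest, just under phthalate library 1. Fbxw16 had 805, 1372 and 1216 CPM against 805, 1118 and 1680, a ratio of 0.10 (-0.03 to 0.23). Fbxw21 had 1180, 1492 and 1170 CPM against 1027, 1261 and 1590, a ratio of 0.03 (-0.09 to 0.15). The intervals of Fbxw16 and Fbxw21 include 0, and their groups interleave.

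The 3 least abundant members had the same order of libraries within each group. Fbxw22 had 516, 804 and 733 CPM with water and 452, 746 and 949 with phthalate, a log2 ratio of 0.09 (-0.08 to 0.25). Fbxw20 had 419, 658 and 574 CPM against 377, 566 and 833, a ratio of 0.12 (-0.06 to 0.31). Fbxw13 had 55, 81 and 75 counts with water and 31, 52 and 104 with phthalate. Phthalate libraries 1 and 2 lay below every water library and library 3 above. Its ratio was -0.10 (-0.39 to 0.19). Without phthalate library 3 it was -0.73, the only instance in which leaving out an library carried a member past 1.5-fold.

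**Figure D3:**
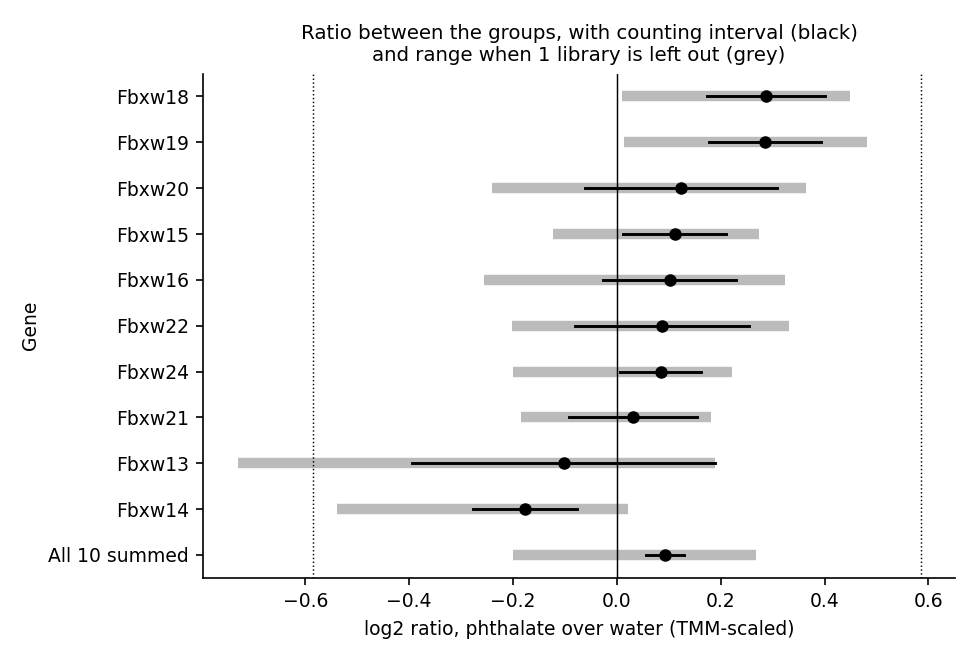
TMM-scaled log2 ratio of phthalate over water for each gene and for the sum of the 10 (points), with the 95% counting interval (black line), the range when 1 library is left out (grey bar) and 1.5-fold differences (dotted). The points lie between -0.18 for Fbxw14 and 0.29 for Fbxw18 and Fbxw19, and the grey bars of the sum and of all genes except Fbxw18 and Fbxw19 span 0.

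Shares within the cluster are ratios of counts of the same library, so they do not use its total. Fbxw16 held 7.08% and 7.32% in water library 1 and phthalate library 1, the libraries with the lowest sums, and 8.30% to 8.72% in the other 4. Fbxw24 made up 22.3% of the member counts with water (95% exact interval 21.5 to 23.0) and 22.1% with phthalate (21.4 to 22.9). Fbxw15 made up 13.8% and 13.9%, Fbxw16 8.21% and 8.26%, Fbxw22 4.96% and 4.94%, and Fbxw20 3.99% and 4.07%. In 3 of the 10 members the shares of the groups did not overlap. For comparison, counts of each of the 4644 genes divided by the summed Fbxw counts did not overlap between the groups for 5.71% of genes. The sum varies within the groups and includes the members, which follow it while most genes do not, so this share is not a like background and the 3 of 10 are given as a description. Shares add up to 1 whole, so a lower share of one member raises those of others.

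Of these, Fbxw14 had the lower share in the phthalate libraries. It made up 14.8%, 14.2% and 15.6% of the member counts with water and 11.7%, 11.8% and 13.1% with phthalate. Summed, the shares were 14.8% (14.2 to 15.5) and 12.3% (11.7 to 12.9). Fbxw14 and Fbxw28 together made up 29.1%, 29.0% and 30.6% of the counts of the 11 genes with water and 23.3%, 24.9% and 27.2% with phthalate. Fbxw14 held 40.1% to 43.5% of the counts of the pair in each library. The order of the groups was thus the same with the pair as a unit.

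Fbxw18 and Fbxw19 had higher shares in the phthalate libraries. Fbxw18 made up 8.97%, 10.1% and 10.5% with water and 11.9%, 11.2% and 11.2% with phthalate. Fbxw19 made up 11.5%, 11.1% and 10.4% with water and 11.9%, 13.2% and 12.3% with phthalate. For Fbxw14 and Fbxw19 the gap between the nearest libraries of the groups was smaller than the spread within either group, and for Fbxw18 it was smaller than the spread within the water group.

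**Figure D4:**
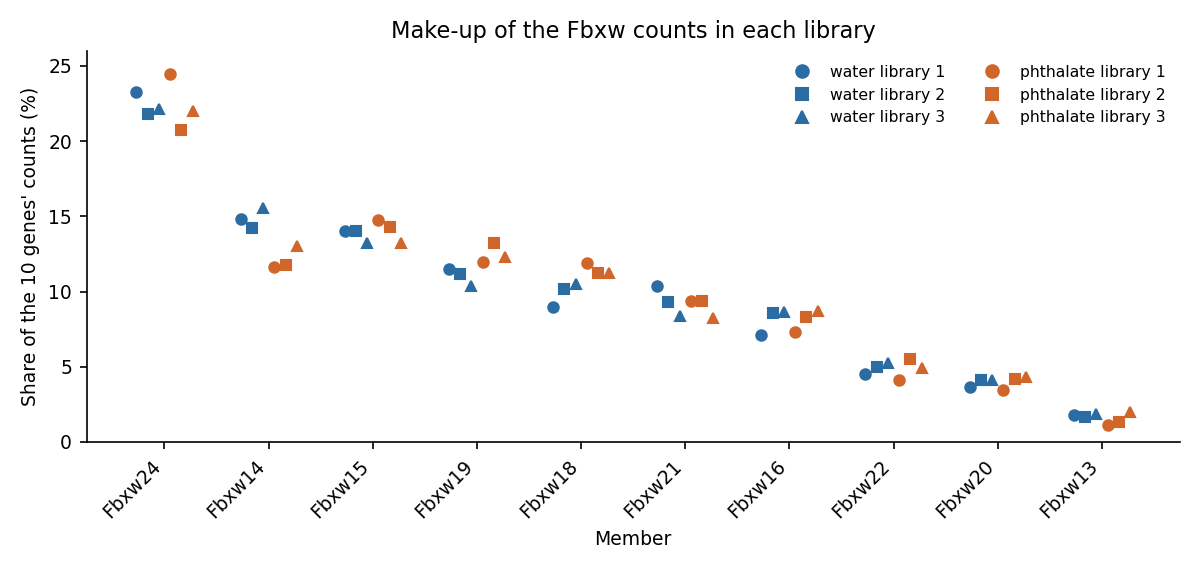
Share of the 10 genes' counts (percent) held by each gene in each library, from the highest share in the water group to the lowest. Fbxw14 is lower in all 3 phthalate libraries (11.7% to 13.1%) than in the water libraries (14.2% to 15.6%), Fbxw18 and Fbxw19 are higher, and the other 7 genes overlap between the groups.

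Fbxw genes outside the locus were far less abundant. The 10 others, Btrc (the beta-TrCP receptor) included, summed to 520 CPM with water and 601 with phthalate, against 13902 and 14655 for the members. Btrc had 91.7 CPM per kilobase and Fbxw4 71.5. Of the 3 that passed the filter, Fbxw4 alone was past 1.5-fold (15.1% of the 4644 genes were, and 8.12% of those averaging at least 20 counts), with 152, 96.4 and 98.7 CPM with water and 190, 163 and 196 with phthalate. These groups did not overlap, as for 10.0% of the 4644 genes. The log2 ratio was 0.69 (0.31 to 1.07), or 0.58 to 0.91 with 1 library left out, and without water library 2 it was just under 1.5-fold. The neighbours of the locus had ratios of -0.14 (Fbxw28), 0.15 (Fbxw26, interval 0.005 to 0.30) and 0.38 (Fbxw27, 0.22 to 0.54). With 1 library left out Fbxw26 ranged from -0.22 to 0.40 and Fbxw27 from 0.17 to 0.62. The CPM of the groups overlapped for each of these neighbours.

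The partners of F-box proteins were present. Among 33 listed genes of the SCF core, of neddylation (the attachment of Nedd8 that activates Cul1), of deneddylation and of the ubiquitin-conjugating enzymes, 22 passed the filter. Their median log2 ratio was -0.13, with 7 above and 15 below 0. Over the 4644 genes the median was 0.01, with 2377 above and 2267 below 0. Of the 22, 1 was past 1.5-fold in the higher direction (6.96% of the 4644 genes were) and 0 in the lower (8.14%). The one was Dcun1d5, a neddylation factor named after its value was seen, with 37 and 58 counts and a ratio of 0.72 (0.10 to 1.36). With 1 library left out the number of these genes past 1.5-fold was 0 (water library 1 or phthalate library 1), 1 (water library 2 or 3), 3 (phthalate library 2) or 4 (phthalate library 3). Under these omissions 18.8% to 22.1% of all filtered genes were past it. By level the list was led by Skp1a, the adaptor that binds the F-box, at 957 CPM per kilobase, followed by Cops4, a subunit of the deneddylating COP9 signalosome (225), and Ube2d3, a conjugating enzyme (192). Skp1a had 1481, 1971 and 1928 CPM with water and 939, 1413 and 2262 with phthalate, a ratio of -0.20 (-0.31 to -0.09) that ranged from -0.62 to 0.06 with 1 library left out. It was lowest in phthalate library 1 and highest in phthalate library 3, as the Fbxw sum was, and its r with that sum was 0.86. The next 2 genes were named as core subunits, outside the rule for naming. The scaffold Cul1 had 434, 545 and 560 CPM against 436, 458 and 444, a ratio of -0.19 (-0.39 to 0.01) and an r of 0.31. The ring-finger subunit Rbx1 had a ratio of -0.30 (-0.58 to -0.01), which ranged from -0.47 to -0.05 with 1 library left out.

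Other substrate receptors were each well under the leading Fbxw members. Of 57 rows named Fbxo or Fbxl, with Ccnf, Skp2 and the opposite-strand transcript Fbxl12os (1 count in all), 18 passed the filter, with a median log2 ratio of 0.09. The highest levels were 227 CPM per kilobase for Fbxl6, 163 for Fbxo34 and 141 for Fbxo5 (Emi1, an inhibitor of the anaphase-promoting complex). Past 1.5-fold were 3 genes higher and 3 lower, against 6.96% and 8.14% of the 4644 genes. Fbxl6 had 356, 263 and 278 CPM with water and 595, 552 and 302 with phthalate, a ratio of 0.71 (0.48 to 0.95) with groups that overlapped. Without phthalate library 1 the ratio was 0.58, just under 1.5-fold. Fbxo28 had 41, 40 and 46 counts against 41, 16 and 18, a ratio of -0.69 (-1.12 to -0.26). Its ratio was -1.28 without phthalate library 1, and it was not past 1.5-fold without phthalate library 2 (-0.36) or 3 (-0.54). The remaining 4, Fbxo7 and Fbxo31 higher and Fbxl20 and Fbxo11 lower, had mean counts under 20 and were named after their values were seen. With 1 library left out, Fbxo7 (0.80) ranged from 0.60 to 1.01 and Fbxl20 (-1.14) from -1.29 to -0.80, past 1.5-fold throughout. Fbxo31 (0.78, from 0.43 to 1.60) and Fbxo11 (-0.69, from -0.94 to -0.38) did not stay past it. The groups did not overlap for Fbxl20, as for 10.0% of the 4644 genes.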

How the data were processed

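The deposited table holds raw counts, 1 row per gene symbol, with no normalization by the authors. Per the submitters' processing notes, cutadapt, Trimmomatic, HISAT2 and DESeq2 were used with mm10. The counting tool, annotation and use of molecular identifiers are not given in the sources used here. From 68.0% to 71.1% of values from 1 to 20 were even in each library, as counting both mates of a pair would give (not tested further); intervals would then be too narrow. PCR copies are not independent molecules, so intervals cover counting error only.

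The 92 ERCC rows stayed out of totals. Ratios used group sums, TMM factors (edgeR 4.0.16, R 4.3.3) on 4644 genes passing filterByExpr (minimum count 10, minimum total 15), and 95% Clopper-Pearson (exact) limits for the share of one group in the sum of both. A group sum of 0 was set to 3 counts. The ratio step was tested on simulated data. Coding sequences and promoters were aligned with MAFFT 7.526. Lengths were those of the APPRIS principal transcript and matched 24366 of 25239 symbols.

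Named genes were all members, the 3 highest per kilobase of each other list, those past 1.5-fold with a mean count of at least 20 (at most 3 per direction), and the 3 most similar in course. Named outside this rule, with values known, were Dcun1d5, Fbxo7, Fbxo31, Fbxl20, Fbxo11, Cul1, Rbx1 and Btrc. Members and lists were chosen with earlier results of these data known. Alternatives were other scalings (DESeq2 1.42.0 size factors among them), no filter, a fold of 2, means over libraries, Rn45s left out, each library or member left out, read pairs, and Fbxw28 added; the last 2 kinds were chosen after seeing the data.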

Additional observations from a re-analysis of the deposited data

How the results depend on the processing

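The sign of the summed Fbxw ratio rested on which libraries were included. Leaving out 1 library gave -0.20 to 0.27 for the summed log2 ratio, -0.20 to 0.29 for the median over members, 0 to 1 for members past 1.5-fold, and 0 to 4 for genes of the SCF list past it, where 18.8% to 22.1% of all genes were. The median of the SCF list was between -0.19 and -0.04 in these cases. With all libraries, the summed ratio was 0.14 without Fbxw14 and 0.056 with Fbxw28 added. The other 9 single-member omissions and the changes of scaling kept it within the counting interval. Genes of the SCF list past the fold numbered 0 of 19 on read pairs (8.65% of all genes), 5 of 30 without a filter (39.7%) and 0 of 22 at a fold of 2 (2.78%), against 1 of 22 in the report (15.1%). Of 111 ratios of single members under alternatives, 34 left their counting interval, each with 1 library left out, and 0 of the 51 others did. The cause of these shifts between libraries was not tested. No paired analysis was possible because the library numbers name no animal, culture or day that the groups share. The counting intervals of Fbxw13, Fbxw16, Fbxw20, Fbxw21 and Fbxw22 include a ratio of 0. Those of the other 5 members exclude it, against 22.7% of the 4644 genes. Intervals narrow with counts, so that share is not a like background. The lower limits of Fbxw15 and Fbxw24 are only 0.01, and all intervals are too narrow if both mates of a pair were counted. The spread between animals is not measured.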
